A study of Mus musculus with 12 samples.

Results

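The genes described here are 10 genes of adipocyte identity and of the lipid droplet, *Adipoq*, *Cfd*, *Cidec*, *Fabp4*, *Plin1*, *Plin4*, *Lpl*, *Car3*, *Retn* and *Lep*. They were chosen by symbol from the 23420 genes of the deposited table, and all 10 were found there. The rule used no measured value, but earlier results of these data were known when the genes were chosen, which limits every test of them below. B16-F10 is a melanoma cell line of C57BL/6 origin. The cells were implanted subcutaneously into the flank of C57BL/6J male mice, and the bulk RNA of 12 tumors was sequenced, 3 from each of 4 groups. Nonobese mice had received a matching control diet, and obese mice a Western diet with 0.2% cholesterol. The Western diet was started at 4 to 5 weeks of age and given for 15 weeks, and the same was taken to hold for its matching control. Once tumors were palpable, mice of either diet received an isotype control antibody or an anti–PD-1 antibody, which blocks the checkpoint receptor PD-1 on T cells, at 10 mg/kg. Tumors were collected on day 16. The tumor cells and their implantation were common to the 4 groups, the host genotype carried no modification in the labels, and what was sequenced is a piece of whole tumor with the host tissue in it.

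White adipocytes store triglyceride in a single large droplet, coat it with perilipins, take up fatty acids that lipoprotein lipase releases from circulating lipoproteins, and secrete hormones and complement factor D. The program is driven by PPARG and C/EBP factors during differentiation. Subcutaneous tumors grow next to the fat and the thin muscle layer of the skin, and several of these genes are not private to adipocytes: *Fabp4* and *Lpl* are also used by endothelial cells and macrophages, and *Car3* by skeletal muscle.

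Total counts per tumor ranged from 14022929 to 33871843 (median 20968840), and 13095 genes passed the filter on low counts and were tested, all 10 adipocyte genes among them. Because filtering kept genes with enough counts in as few tumors as 1 group holds, a gene could pass through the group in which it was high. *Plin1* and *Retn* reached the filter's level (10 counts at the median depth) only in isotype-treated nonobese and treated obese tumors, so that counts over the 10 genes are not independent of the filter for these. Melanoma markers (*Tyr*, *Dct*, *Pmel* and 7 others) summed to between 35505 and 42303 CPM (counts relative to the library size after TMM scaling) in every tumor, and none of the 10 passed the thresholds in any comparison. Levels below are raw counts, or CPM as mean ± SD of the 3 tumors of a group. A gene was called when its fold change was above 2 and its unadjusted P value below 0.05 in edgeR's quasi-likelihood F-test, the thresholds of the study's methods, and the Benjamini-Hochberg FDR over all genes tested stands beside it. The 10 genes together took 21.6 CPM in the tumor with the least and 183.9 CPM in the tumor with the most.

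The upstream sequences of 4 members are shown because these genes moved together and because 3 of them hold TTGCNNAA, a C/EBP-like motif and the only searched motif found in a window of these genes. RefSeq (GRCm38.p6, the assembly of mm10) gave 8 windows for 7 of the members, from 250 bases before to 50 bases after a transcription start, and none was used for *Fabp4*, *Lpl* or *Car3*. Bases are written 5′ to 3′ on the gene's strand, up to the first annotated exon, and capitals mark that motif. They are *Adipoq* (chr16:23146286-23146534, plus strand), the second start of *Cidec* inside the gene (chr6:113434766-113435014, minus strand), *Plin1* (chr7:79732905-79733026, minus strand) and *Lep* (chr6:29059971-29060218, plus strand).
Adipoq: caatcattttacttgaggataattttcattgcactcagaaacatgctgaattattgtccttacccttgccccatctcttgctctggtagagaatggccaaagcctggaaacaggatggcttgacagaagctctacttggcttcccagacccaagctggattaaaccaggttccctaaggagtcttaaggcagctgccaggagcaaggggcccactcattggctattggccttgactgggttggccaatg
Cidec: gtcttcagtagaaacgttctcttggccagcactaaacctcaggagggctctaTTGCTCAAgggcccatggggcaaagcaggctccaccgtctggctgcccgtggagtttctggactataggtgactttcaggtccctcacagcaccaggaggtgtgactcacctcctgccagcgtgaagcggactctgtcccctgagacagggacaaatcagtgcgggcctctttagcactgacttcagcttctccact
Plin1: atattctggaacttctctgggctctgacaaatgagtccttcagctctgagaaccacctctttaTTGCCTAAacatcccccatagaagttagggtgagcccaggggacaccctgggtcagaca
Lep: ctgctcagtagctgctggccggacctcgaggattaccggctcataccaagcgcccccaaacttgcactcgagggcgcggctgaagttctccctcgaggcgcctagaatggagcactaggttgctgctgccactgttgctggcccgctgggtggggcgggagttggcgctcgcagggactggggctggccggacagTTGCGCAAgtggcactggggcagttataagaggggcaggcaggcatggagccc

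The motif began 198 bases upstream of the second *Cidec* start, 187 bases upstream of the *Plin1* start that RefSeq's window uses, which lies inside the gene, and 55 bases upstream of *Lep*, where it reads the same on both strands. *Plin1* held another match 58 bases upstream of its RefSeq start, which is not shown because longer transcripts begin before it. Both strands of the whole windows were searched, and 3 of 8 member windows held TTGCNNAA, against 10.8% of the 32851 mouse windows of the same length. The TATA box motif TATAAA was in 0 of the 8 windows, against 13.6% of all windows. The core site of nuclear receptors such as PPARG with RXR, searched as AGGTCA, and a direct repeat of that site spaced by 1 base were also in 0 of the 8, against 16.3% and 0.04% of all windows. Any match to the repeat is also counted under the single site. These are matches of letters and no measurement of binding.

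The first of the secreted members is *Adipoq* (gene ID 11450, protein coding, chr16:23146536-23157968), which encodes adiponectin, the hormone most particular to fat. It had 27, 96 and 27 counts in the isotype-treated nonobese tumors 1, 2 and 3, and 3, 10 and 12 in those given anti–PD-1. The obese isotype tumors gave 9, 6 and 16 counts, and the treated obese tumors 45, 42 and 164. The counts were thus low in the nonobese anti–PD-1 and obese isotype groups and high in the other two. Scaled levels were 1.74 ± 0.99 and 0.33 ± 0.19 CPM in nonobese mice and 0.52 ± 0.21 and 4.24 ± 2.86 CPM in obese mice, isotype first. The treated tumors did not overlap with the isotype tumors in either diet, below them in nonobese mice and above them in obese mice.

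*Cfd* (11537, chr10:79890853-79892655) encodes complement factor D, also called adipsin. In nonobese mice it had 80, 454 and 140 counts in isotype tumors against 6, 77 and 72 in treated ones, and in obese mice 5, 17 and 20 against 100, 71 and 324. Tumor 2 of the isotype-treated nonobese group and tumor 3 of the treated obese group stood highest. The group levels were 7.96 ± 5.39, 1.97 ± 1.497, 0.78 ± 0.51 and 8.44 ± 5.77 CPM in the order of nonobese mice with isotype and with anti–PD-1, then obese mice with isotype and with anti–PD-1, which is kept for the genes that follow. The 2 nonobese groups overlapped, and the 2 obese groups did not.

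*Retn* (57264, chr8:3655770-3659818) encodes resistin, an adipocyte hormone in mice. It was the member with the fewest reads, 104 in all 12 tumors. Its counts were 24, 19 and 6, then 0, 3 and 5, then 0, 2 and 1, then 6, 6 and 32. The obese isotype tumors held 3 counts in total against 44 in the treated obese tumors, a ratio of 15.3 after scaling (95% interval 4.92 to 77.2), and 49 in the isotype-treated nonobese tumors, a ratio of 11.6 (3.76 to 58.4). These intervals cover counting error only. *Lep* (16846, chr6:29060221-29073876), which encodes the satiety hormone leptin, had 9, 20 and 15, then 0, 6 and 10, then 4, 6 and 13, then 42, 21 and 45 counts. Leptin therefore stood apart in only the treated obese group, at 2.02 ± 0.96 CPM against 0.58 ± 0.28, 0.21 ± 0.22 and 0.40 ± 0.23 CPM. A count of 0 allowed up to 0.152 CPM in the first treated nonobese tumor and up to 0.126 CPM in the first obese isotype tumor, by a limit of 3 counts.

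Of the droplet proteins, *Cidec* (14311, chr6:113424634-113435760) encodes the protein that enlarges droplets by lipid transfer between them. Its counts were 22, 72 and 39, then 5, 10 and 10, then 6, 15 and 10, then 96, 23 and 146. The spread within the treated obese group was wide, 4.85 ± 3.22 CPM. Its lowest tumor, at 1.13 CPM (23 counts), was only just above the highest obese isotype tumor, at 1.05 CPM (15 counts). *Plin1* (103968, chr7:79721164-79732904), the perilipin that guards the adipocyte droplet from lipases, had 7, 40 and 9, then 0, 8 and 6, then 2, 6 and 6, then 30, 19 and 74 counts. Its levels were 0.64 ± 0.49, 0.17 ± 0.15, 0.26 ± 0.17 and 2.14 ± 1.22 CPM. *Plin4* (57435, chr17:56100587-56109948), a perilipin of nascent droplets, had 23, 107 and 42, then 7, 25 and 38, then 7, 13 and 17, then 58, 43 and 226 counts. It was the only member whose exons share bases with another gene in GENCODE vM21, 8 bases with *Hdgfl2* on the opposite strand.

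The 2 genes of fatty acid handling had the smallest ratios between their highest and lowest tumors. *Fabp4* (11770, chr3:10204342-10208616), the cytosolic carrier of fatty acids, had 416, 762 and 397, then 266, 403 and 408, then 337, 281 and 329, then 590, 531 and 982 counts. The first 3 groups lay close together at 19.4 ± 5.3, 14.7 ± 3.0 and 16.5 ± 2.8 CPM, and the treated obese group was at 37.5 ± 10.0 CPM. *Lpl* (16956, chr8:68880555-68906932), lipoprotein lipase, had 370, 898 and 279, then 135, 315 and 259, then 154, 92 and 225, then 254, 468 and 779 counts. The highest tumor exceeded the lowest by 3.59-fold for *Fabp4* and 5.52-fold for *Lpl*, against 26.8-fold for *Cidec*, 35.0-fold for *Plin4* and 70.3-fold for *Cfd* on the CPM scale. No such ratio is given for the other 5 members, which had 3 counts or fewer in their lowest tumor.

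*Car3* (12350, chr3:14863538-14872381), carbonic anhydrase III, is an abundant cytosolic enzyme of fat and of slow muscle. Its counts were 66, 808 and 337, then 2, 324 and 313, then 8, 19 and 146, then 215, 373 and 1258. It ranged from 2 counts (0.10 CPM) in the first treated nonobese tumor to 57.4 CPM in the third treated obese tumor. Scaled to depth, the treated nonobese tumors were at 0.10, 10.02 and 13.96 CPM and the isotype tumors at 2.12, 23.7 and 19.1 CPM, so that the first treated tumor was below all isotype tumors and the other two lay above the first isotype tumor and below the rest. The 4 tumors lowest in *Car3* were also the 4 lowest in the sum of 12 skeletal muscle markers (such as *Acta1*, *Ckm* and *Mylpf*), with 10.4 to 23.2 CPM, and the tumor highest in *Car3* was highest in that sum, with 707 CPM.

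**Figure D1:**
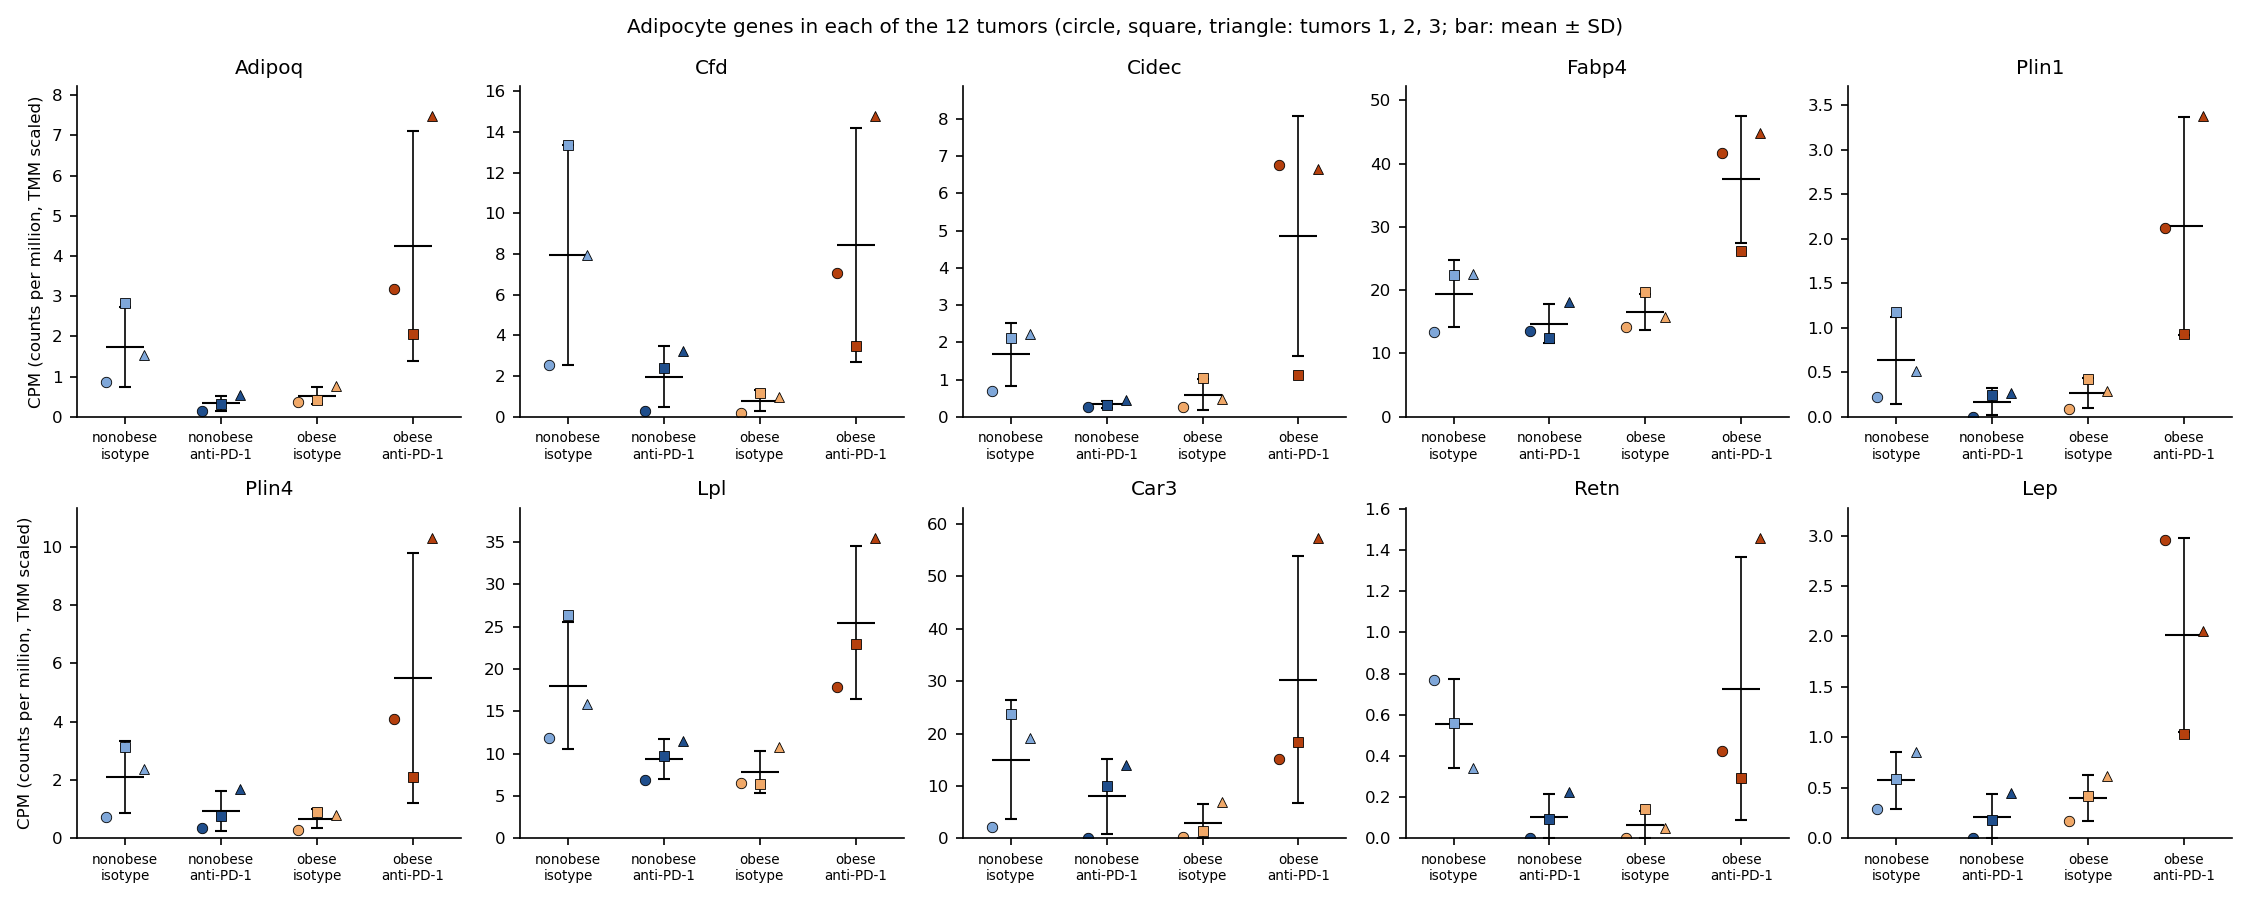
CPM of each adipocyte gene (vertical axes, linear and from 0) in the 3 tumors of each group (points, shaped by tumor number), with the group mean ± SD as bars cut at 0. For all 10 genes the 3 treated obese tumors lie above the 3 obese isotype tumors, and the treated obese group has the highest mean.

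Per length of exon, the order of the members within the treated obese group was *Fabp4* (41.9 CPM per kilobase), *Car3* (18.05), *Cfd* (9.16), *Lpl* (6.19), *Adipoq* (3.28), *Cidec* (2.77), *Plin4* (0.95), *Lep* (0.62), *Plin1* (0.55) and *Retn* (0.46). The treated obese group had the highest mean for all 10 members. The lowest mean was in the treated nonobese group for *Adipoq*, *Cidec*, *Fabp4*, *Plin1* and *Lep*, and in the obese isotype group for *Cfd*, *Plin4*, *Lpl*, *Car3* and *Retn*. The highest group mean exceeded the lowest by 2.55-fold for *Fabp4*, 3.23-fold for *Lpl* and between 8.19-fold and 14.4-fold for the other 8.

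To see how PD-1 blockade related to these genes in obese mice, treated and isotype tumors were compared. All 10 genes rose, with log2 fold changes between 1.19 for *Fabp4* and 3.68 for *Retn* (median 3.07, against -0.01 over all genes tested). In this comparison 2.24% of the genes tested were called higher. These 293 genes became 555 without the first treated obese tumor, 194 without the second and 187 without the third. *Adipoq* rose by 3.01 (SE 0.61, FDR 0.192), *Lpl* by 1.69 (SE 0.33, FDR 0.192), *Fabp4* by 1.19 (SE 0.24, FDR 0.192) and *Cidec* by 3.09 (SE 0.70, FDR 0.206) on the log2 scale. The rises of *Plin4* (3.07), *Plin1* (3.08), *Cfd* (3.49), *Lep* (2.31) and *Car3* (3.38) had FDR values between 0.220 and 0.473. The groups did not overlap for any of the 10, as for 5.45% of the genes tested in this direction. At an FDR below 0.05 edgeR called 0.0% of all genes, although 991 had an unadjusted P value below 0.05 and DESeq2 called 105 genes at that FDR. Without the first treated obese tumor edgeR called 76 genes at that FDR, and without any other single tumor it called 0. Without tumor 3 of the treated obese group *Car3* was not called (log2 fold change 2.54, unadjusted P = 0.0598 from edgeR), and the other 9 still were.

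In nonobese mice the same comparison gave values below 0 for all 10 genes, with a median log2 fold change of -1.59 against 0.02 over all genes tested. *Adipoq* (-2.37, SE 0.62), *Retn* (-2.35, SE 0.88), *Cidec* (-2.29, SE 0.71) and *Cfd* (-1.997, SE 0.75) fell, with FDR values from edgeR between 0.833 and 0.859, where 2.31% of the genes tested were called lower. The other 6 did not pass, among them *Plin1* at -1.81 (SE 0.84), *Lep* at -1.37 (SE 0.79) and *Fabp4* at -0.40 (SE 0.24). *Lpl* at -0.94 (SE 0.33) had an unadjusted P value of 0.0121 from edgeR and a fold change of 1.92. The groups did not overlap for *Adipoq*, *Cidec*, *Lpl* and *Retn*, as for 5.37% of the genes tested in this direction. At an FDR below 0.05 edgeR called 0.0% of genes, with 685 at an unadjusted P value below 0.05 and 9 by DESeq2. The count of 4 became 2 without the first treated nonobese tumor, in which *Plin1*, *Retn* and *Lep* had no read, and 7 without the third. Over all genes the 302 called lower became 180 and 476 with the same omissions. *Cfd* was not called without the second isotype tumor (-1.38, unadjusted P = 0.1101 from edgeR), nor without the first treated tumor (-1.52). *Retn* was not called without the first isotype tumor (-2.05), the first treated tumor (-1.87) or the second treated tumor (-2.23).

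The difference between the 2 responses was tested as an interaction. All 10 genes passed in the direction of obese mice, from 1.59 for *Fabp4* to 6.03 for *Retn* on the log2 scale (median 4.58, against -0.04 over all genes tested), with FDR values between 0.0709 for *Adipoq* and 0.277 for *Car3* from edgeR. In this test 4.93% of genes were called higher and 0.0% had an FDR below 0.05, with 1687 at an unadjusted P value below 0.05 and 283 genes called at that FDR by DESeq2. The genes below that FDR in edgeR became 197 without the first treated obese tumor and 111 without the first isotype-treated nonobese tumor. They became 37 without the third treated nonobese tumor and stayed at 0 without any other single tumor. Without the third treated obese tumor *Car3* was not called (3.43, unadjusted P = 0.0555 from edgeR).

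Diet was compared within each treatment. With isotype, values were below 0 in obese mice for all 10 genes (median -1.61, against 0.01 over all genes tested) and 6 of them fell, where 1.12% of genes tested were called lower. These were *Cfd* (-3.40, SE 0.84), *Retn* (-3.30, SE 1.04), *Adipoq* (-1.73, SE 0.60), *Plin4* (-1.66, SE 0.73), *Cidec* (-1.55, SE 0.69) and *Lpl* (-1.19, SE 0.33), with FDR values from edgeR between 0.181 and 0.365. *Car3* was at -2.36 (SE 1.14), *Plin1* at -1.36 (SE 0.84), *Lep* at -0.49 (SE 0.76) and *Fabp4* at -0.24 (SE 0.24). Leptin RNA in the tumors was therefore not detectably different between obese and nonobese mice with isotype. Groups did not overlap for 4 members (*Adipoq*, *Cfd*, *Lpl* and *Retn*), as for 9.02% of genes tested in this direction. At an FDR below 0.05 edgeR called 0.0% of genes, with 1739 at an unadjusted P value below 0.05 and 200 by DESeq2. The count of 6 became 2 without the second isotype-treated nonobese tumor and 3 without the first obese isotype tumor, while over all genes the 147 called lower became 53 and 252. *Cidec* and *Plin4* were the least firm of the 6, and with legacy=FALSE in edgeR neither was called (unadjusted P = 0.0748 and 0.06896).

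With anti–PD-1, values were above 0 in obese mice for all 10 genes, with a median log2 fold change of 2.64 (-0.01 over all genes tested), and 9 rose, where 3.69% of genes tested were called higher. An FDR below 0.05 in edgeR was reached by *Adipoq* (3.65, SE 0.63, FDR 0.0305), *Fabp4* (1.35, SE 0.24, FDR 0.0393) and *Cidec* (3.82, SE 0.72, FDR 0.0435), as by 0.382% of genes tested (50 genes). These FDR calls rested on the tumors fitted: with only the 6 tumors compared edgeR called 0 genes at that FDR (lowest 0.0922; 1064 at an unadjusted P value below 0.05), and the 3 members were at 0.162, 0.162 and 0.166. With all 12 tumors and the replicate number as a block they were at 0.0141, 0.0248 and 0.0382. DESeq2 called 270 genes at that FDR, the 3 members among them. Leaving out 1 of the 12 tumors kept all 3 members below 0.05 for 2 of the tumors and none of the 3 for 7 of them, and *Adipoq* then ranged from 0.0139 to 0.236. Over all genes the 50 became 2 without the second treated nonobese tumor, 3 without the third treated obese tumor, 4 without the first treated nonobese tumor and 4 without the second treated obese tumor. It was 11 to 21 without any one of the obese isotype tumors or without tumor 2 or 3 of the isotype-treated nonobese group, 93 without the third treated nonobese tumor and 214 without the first treated obese tumor. *Plin1* (3.53), *Lep* (3.19), *Retn* (2.73), *Plin4* (2.54), *Cfd* (2.08) and *Lpl* (1.44) rose with FDR values between 0.0952 and 0.337. *Car3* was at 1.91 (SE 1.06, unadjusted P = 0.0950 from edgeR). Groups did not overlap for any of the 10, as for 6.54% of genes tested in this direction. Without the third treated obese tumor *Cfd* (1.39) and *Retn* (1.67) were not called. Comparisons of treatment and of diet share groups, so their values are not independent of each other.

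**Figure D2:**
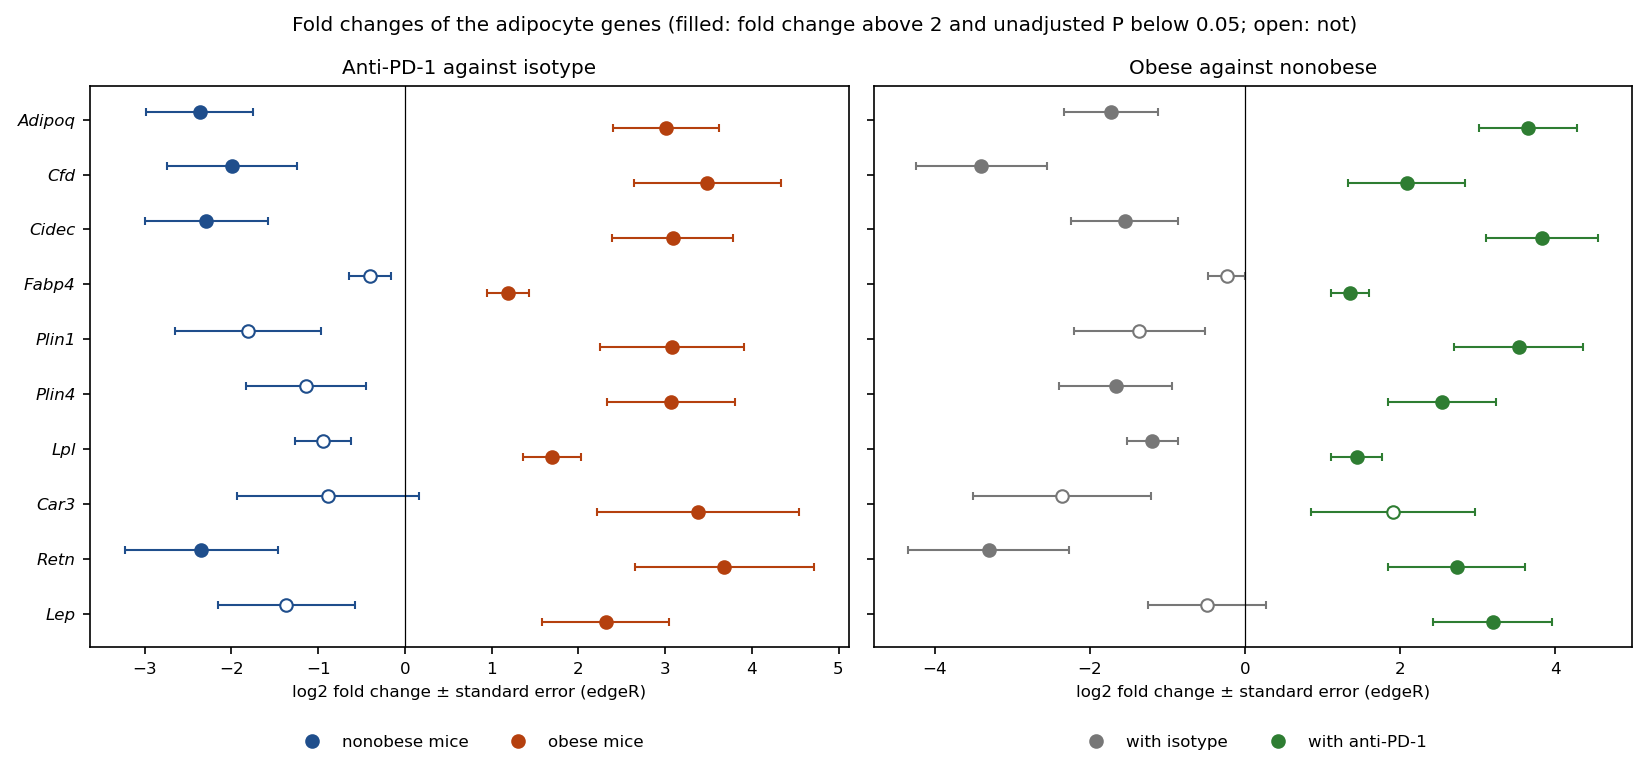
Log2 fold changes of the adipocyte genes (horizontal axes) with their standard errors, on the left for anti–PD-1 against isotype in nonobese and obese mice, on the right for obese against nonobese mice under each antibody; filled points passed both thresholds. The obese response lies between 1.19 and 3.68 and the nonobese response between -2.37 and -0.40.

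The tumors were ordered by each gene to see how the members moved together. Tumor 3 of the treated obese group was the highest for 8 of the 10 members, and tumor 1 of that group for *Cidec* and *Lep*. The first treated nonobese tumor was lowest for 5 members and the first obese isotype tumor for 4. Summed over the 10 genes, the levels were 33.5, 96.3 and 73.3 CPM in isotype-treated nonobese tumors and 21.6, 36.5 and 50.5 CPM in treated ones, and 22.4, 31.97 and 37.4 CPM in obese isotype tumors against 101.2, 78.5 and 183.9 CPM in treated ones. The treated obese sums thus lay above the sums of the obese isotype tumors, while the 2 nonobese groups overlapped.

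Likeness was measured as Pearson's r of log2 CPM with *Adipoq* over the 12 tumors, which share groups and libraries, so it is a description. It was 0.94 for *Plin1*, 0.94 for *Lpl*, 0.93 for *Plin4*, 0.91 for *Cidec*, 0.89 for *Lep*, 0.88 for *Fabp4*, 0.85 for *Cfd*, 0.84 for *Retn* and 0.80 for *Car3* (median 0.89, against -0.04 over all genes tested). Of these 9 genes, 8 were among the 100 genes most like *Adipoq*, and *Car3* had rank 155. Among the 45 pairs of members r ranged from 0.66 to 0.95 (median 0.86). When only deviations from the group means were used, which leaves out the differences between groups, r with *Adipoq* was 0.61 to 0.92 (median 0.78), and among the 45 pairs 0.31 to 0.98 (median 0.73), lowest for *Cidec* with *Lpl*. With the group differences left in, but without the 2 tumors farthest from the median of *Adipoq*, r with *Adipoq* was 0.64 to 0.90.

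**Figure D3:**
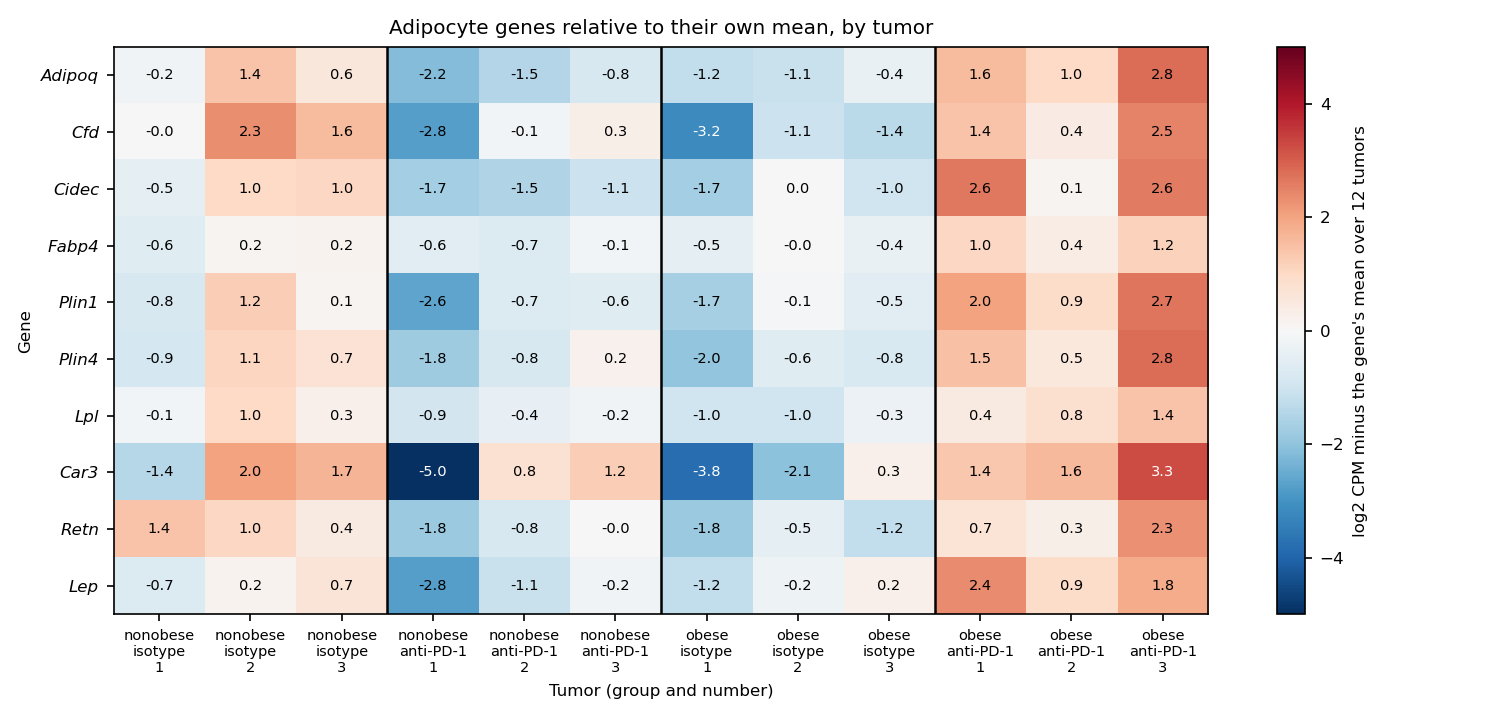
Log2 CPM of each adipocyte gene (rows) in each of the 12 tumors (columns, by group and tumor number), minus the mean of that gene over the tumors; red is above and blue below the mean, and the value is written in each cell. The third treated obese tumor is red and the first treated nonobese and first obese isotype tumors are blue in all 10 rows.

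The 12 other genes most like *Adipoq* were named by the same measure. They were *Hp* (0.96), *Clec4a2* (0.94), *Lrg1* (0.93), *Cd6* (0.93), *Nnat* (0.92), *Sult1a1* (0.90), *Ifi27l2a* (0.90), *Cd3d* (0.90), *Cyp4f18* (0.90), *Ctss* (0.89), *4930506M07Rik* (0.89) and *Klrb1b* (0.88). *Hp*, haptoglobin, is an acute phase protein and had a log2 fold change of 2.40 in obese and -1.68 in nonobese mice upon anti–PD-1. *Cd3d* and *Cd6* are T cell surface proteins, *Klrb1b* is a receptor of natural killer cells and *Ctss* a protease of antigen-presenting cells. *Cd3d* reached the filter's level only in treated obese tumors, so its rank is not independent of the filter and nothing is concluded from it. *Cd6* (95 counts over all tumors), *Klrb1b* (107), *Sult1a1* (135) and *Nnat* (200) also had few reads. How they passed the filter was not checked, and nothing is concluded from their ranks either. The genes near *Adipoq* that had many reads, such as *Ctss* (12631 counts), were not only adipocyte genes.

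Of 6 lists of related genes, 69 genes outside the 10 were tested. In obese mice anti–PD-1 was followed by 6 called higher (8.70%, against 2.24% of all genes tested) and 0 lower, with a median log2 fold change of 0.21. In nonobese mice 0 were called higher and 7 lower (10.1%, against 2.31%; median -0.12). Obese against nonobese mice with anti–PD-1 gave 15 higher (21.7%, against 3.69%) and 0 lower. With isotype 1 was called higher and 1 lower, each 1.45% of the list, against 0.244% and 1.12% of all genes. In the difference between responses 17 were higher (24.6%, against 4.93%) and 0 lower. The same shares of all genes stand behind the counts of single lists below. *Pck1*, *Rbp4*, *Aqp7* and *Lepr* reached the filter's level in fewer than 3 tumors outside their highest group. Counts over the lists are therefore not independent of the filter for these genes. The medians of the wider lists were closer to 0 than those of the 10 members.

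Among the transcription factors, *Pparg*, the master regulator of fat cells, had 23, 8 and 23 counts in obese isotype tumors and 24, 41 and 55 in treated ones. It rose by 1.22 on the log2 scale (SE 0.46, FDR 0.530 from edgeR), the only 1 of the 10 factors called in the obese response. *Ebf1*, a factor of preadipocytes that is also used by B cells, fell in nonobese mice (-1.52, SE 0.51). *Srebf1* (122 to 133 CPM by group) and *Rxra* (111 to 127 CPM) were the most abundant of this list, and neither was called in any comparison. Of the other mature adipocyte genes, 3 of 11 tested rose in the obese response. *Pck1*, the enzyme of glyceroneogenesis, had 4, 6 and 2 counts in obese isotype tumors and 49, 7 and 86 in treated ones (3.56, SE 1.03). *Sncg* (1.91, SE 0.52) and the natriuretic peptide clearance receptor *Npr3* (1.37, SE 0.43) rose too. *Pck1* and *Rbp4* reached the filter's level only in isotype-treated nonobese and treated obese tumors. *Rbp4*, which encodes the carrier of retinol, had no read in the 3 treated nonobese tumors against 3, 20 and 3 with isotype.

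Of the other droplet coat proteins and lipases, 0 of 13 genes were called in either response to anti–PD-1, and the median log2 fold change of the list was 0.05 in obese and -0.06 in nonobese mice. In the obese response 991 of the 13095 genes tested had an unadjusted P value below 0.05 in edgeR, in either direction. Of the 13 listed genes, 4 had such a P value with a value above 0 and missed the fold threshold. These were *Hilpda* (0.78, SE 0.32), a droplet protein induced by hypoxia, and *Lipe* (0.62, SE 0.24), hormone-sensitive lipase. The others were *Cav1* (0.39, SE 0.16), a coat protein of caveolae, and *Pnpla2* (0.38, SE 0.17), adipose triglyceride lipase. Their FDR values were between 0.540 and 0.654. *Hilpda* had 484, 309 and 449 counts in obese isotype tumors and 883, 428 and 578 in treated ones. Its levels were 21.1 ± 0.7 and 36.6 ± 22.4 CPM, with the first treated tumor far above the rest. *Lipe* was at 6.1 ± 0.7 and 9.4 ± 3.1 CPM. *Plin2* and *Plin3*, perilipins found in most cell types, were at 218 to 268 CPM and 280 to 290 CPM by group, and their log2 fold changes in the obese response were 0.20 (SE 0.15) and 0.05 (SE 0.12). *Mgll*, monoacylglycerol lipase, rose with diet under either antibody, by 1.42 with isotype (SE 0.22, FDR 0.0862) and by 1.31 with anti–PD-1 (SE 0.22, FDR 0.0267 from edgeR), and was at -0.04 (SE 0.22) in the obese response to anti–PD-1. Its levels were 156 ± 47, 163 ± 35, 416 ± 76 and 405 ± 70 CPM.

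In fatty acid uptake and triglyceride synthesis, 2 of 19 genes rose in the obese response, *Cd36* (1.05, SE 0.22, FDR 0.192), the fatty acid translocase, and *Lipg* (2.00, SE 0.59, FDR 0.331), endothelial lipase. *Cd36* had 220, 144 and 343 counts in obese isotype tumors and 325, 513 and 564 in treated ones, or 11.9 ± 3.9 and 24.6 ± 1.5 CPM. *Angptl4*, an inhibitor of lipoprotein lipase, was higher in obese than nonobese mice with anti–PD-1 (1.69, SE 0.28, FDR 0.0267 from edgeR), as was *Cd36* (1.18, SE 0.22, FDR 0.0435). With only the 6 tumors compared these FDR values were 0.166 and 0.109, and that of *Mgll* was 0.139. With each of the 12 tumors left out in turn, *Angptl4* was below 0.05 in 5 fits (0.00436 to 0.228), *Cd36* in 4 (0.0279 to 0.272) and *Mgll* in 6 (0.01296 to 0.223). The synthetic enzymes *Fasn* (857 to 1229 CPM by group) and *Scd1* (289 to 350 CPM) were the most abundant and were not called.

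Among adipokines, their receptors and the partners of factor D, 5 of 12 tested genes fell in the nonobese response, where 2.31% of all genes tested did. Complement component *C3*, on which factor D acts through factor B, fell by 2.39 on the log2 scale (SE 0.78), and properdin (*Cfp*) by 1.06, the C3a receptor *C3ar1* by 1.18, chemerin (*Rarres2*) by 1.44 and its receptor *Cmklr1* by 1.53. In the obese response 0 of the 12 were called. The adiponectin receptor *Adipor1* was at 216 to 234 CPM by group and was not called. Of 8 brown and beige adipocyte genes 4 were tested and 0 were called, and *Ucp1*, the uncoupling protein that defines brown fat, had 0 counts in all 12 tumors.

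Markers of other cell types moved with the adipocyte genes in part. In bulk tumors, fewer cells of a type and less RNA per cell cannot be told apart. The 12 skeletal muscle markers, all detected in each group, summed to 14.1, 23.2 and 158 CPM in obese isotype tumors and 48.2, 316 and 707 CPM in treated ones, and 2 of 12 rose in the obese response (2.24% of all genes tested). In nonobese mice they summed to 20.2, 432 and 372 CPM with isotype and 10.4, 243 and 456 CPM with anti–PD-1, and 0 of 12 were called. The first treated obese tumor had the highest *Cidec* and *Lep* of all tumors and a muscle sum of 48.2 CPM, below the sum of the third obese isotype tumor.

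The 10 fibroblast markers (*Col1a1*, *Dcn*, *Pdgfra* and others) summed to 626 to 2832 CPM, 292 to 570 CPM, 216 to 1120 CPM and 434 to 1887 CPM in the order of groups above. Of these, 8 fell in the nonobese response (2.31% of all genes tested) and 0 were called in the obese response. The 10 macrophage markers (*Csf1r*, *C1qa*, *Mrc1* and others) summed to 239 to 520, 159 to 232, 193 to 331 and 272 to 535 CPM, with 5 lower in the nonobese response and 1 higher in the obese response. Endothelial markers (10 genes) summed to between 123 and 259 CPM in all tumors, with 1 lower in the nonobese and 0 called in the obese response. Keratinocyte and skin markers (10 genes, of which 2 had no read in the isotype-treated nonobese group and 4 in each other group) summed to 4.55 to 24.5 CPM. Of the T cell markers 9 had a row, summed to 5.24 to 8.38 CPM in the other 3 groups and to 8.25, 21.2 and 19.5 CPM in treated obese tumors. Of the 7 tested, *Cd3d*, *Cd3e* and *Cd3g* reached the filter's level only in treated obese tumors, so no count of called T cell markers is given. Red cell markers summed to 18.6 to 175 CPM, with 1 of 3 tested higher in the obese response. In the difference between responses 10 of 10 macrophage, 8 of 10 fibroblast, 1 of 12 muscle and 1 of 10 endothelial markers were called, all in the direction of obese mice, against 4.93% of all genes tested. With anti–PD-1, obese against nonobese mice gave 7 macrophage and 6 fibroblast markers called higher (3.69% of all genes tested), and 0 muscle markers. The part of these cell types in the values of the adipocyte genes was not tested.

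**Figure D4:**
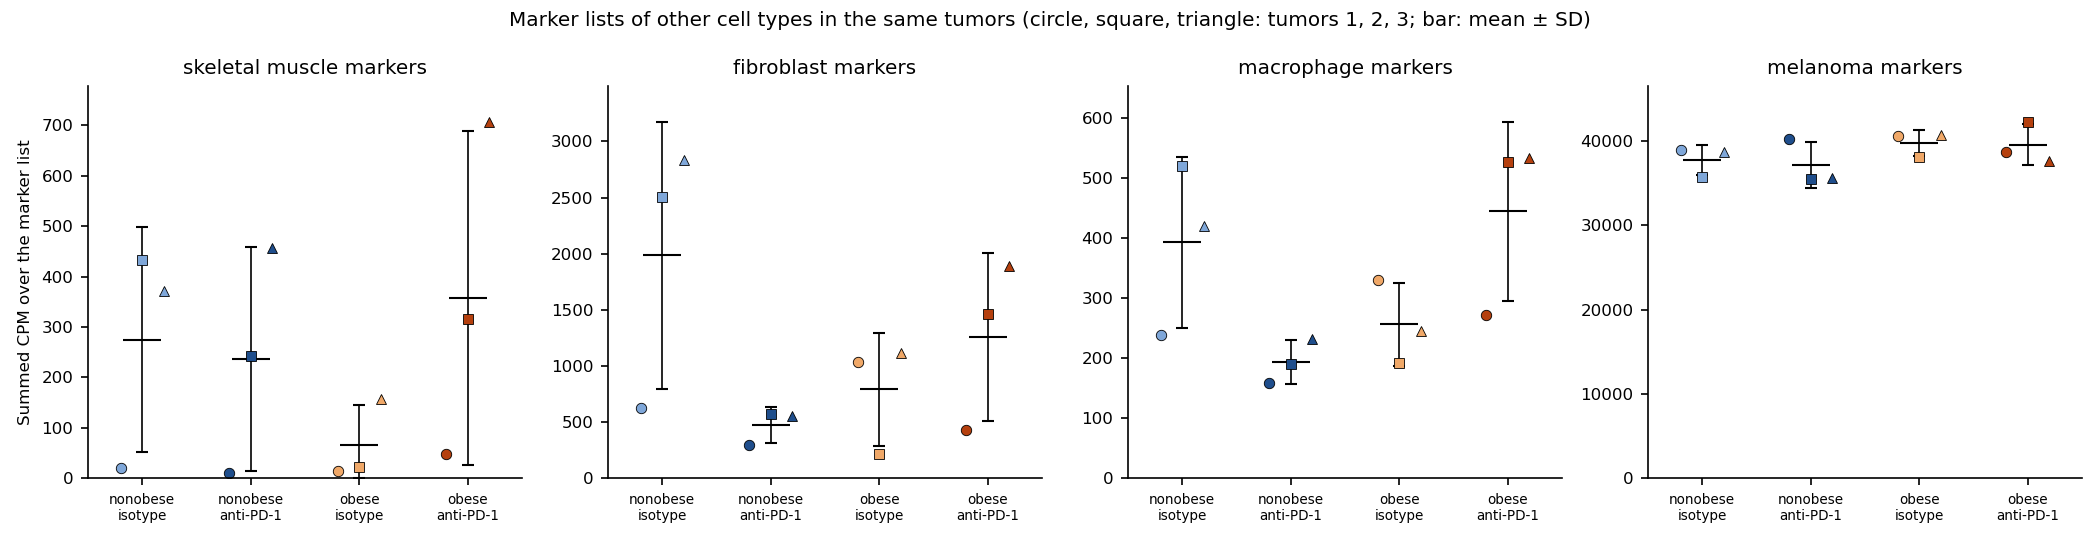
Summed CPM (vertical axes, linear and from 0) of the marker lists of skeletal muscle, fibroblasts, macrophages and melanoma in each tumor (points, shaped by tumor number), with the group mean ± SD as bars cut at 0. Muscle markers range from 10.4 to 707 CPM between tumors, and melanoma markers from 35505 to 42303 CPM.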

How the data were processed

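RNA of 12 tumors was measured, 3 per group. The authors prepared libraries with a stranded poly(A) kit, mapped single-end reads to mm10 with STAR 2.7.0f and obtained raw counts per gene with HTSeq 0.9.1, and deposited these counts unnormalized for 23420 genes; whether HTSeq counted by strand is not given in the sources used here. All columns were matched to a tumor by name (0 unused).

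Counts were filtered with filterByExpr, scaled by TMM and fitted with edgeR 4.0.16 (R 4.3.3; glmQLFit, legacy=TRUE) in a single model of 4 group means over 12 tumors with 8 residual degrees of freedom (common dispersion 0.0352). Log2 CPM used a prior count of 2. DESeq2 1.42.0, other scalings, filters and fits, the replicate number as a block, and leaving out each tumor were the alternatives. The code was tested on simulated data. Depth per tumor, 14022929 to 33871843 counts, limits the precision of genes with few reads; without molecular identifiers, counting intervals and limits of 3 counts cover counting error only. Tumors of a group carry no further label of origin, so P values measure the spread between these tumors.

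Members and gene lists were chosen with earlier results of these data known. Named genes are all 10 members, list genes past both thresholds (up to 4 per list and comparison) or among the 2 highest in mean CPM of a list, and the 12 genes most like *Adipoq*; *Plin2*, *Hilpda*, *Lipe*, *Cav1*, *Pnpla2*, *Ucp1* and example markers were named after their values were seen. Of 161 other listed genes 159 had a row, 5 by an older symbol. Gene coordinates are of RefSeq GRCm38.p6, exons of GENCODE vM21.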

Additional observations from a re-analysis of the deposited data

Results flagged for a closer look

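The response to anti–PD-1 differed between obese and nonobese mice for each of the 10 adipocyte genes by the test of the difference itself, passing both thresholds used above. In that direction 4.93% of all genes tested passed. Without the third treated obese tumor *Car3* did not pass (3.43, unadjusted P = 0.0555 from edgeR). On the log2 scale the obese response exceeded the nonobese response by 5.38 for *Adipoq*, 5.48 for *Cfd*, 5.38 for *Cidec*, 4.89 for *Plin1*, 4.21 for *Plin4*, 2.63 for *Lpl*, 4.27 for *Car3*, 1.59 for *Fabp4*, 6.03 for *Retn* and 3.68 for *Lep*. With all tumors fitted, the FDR from edgeR was below 0.05 for none of the 10 genes. That result rested on the tumors fitted. Over all genes, the number below that FDR went from 0 to 197 without the first treated obese tumor. It was 111 without the first isotype-treated nonobese tumor, 37 without the third treated nonobese tumor and 0 without any other single tumor. The FDR values of the 10 genes in those fits are not given here.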

How the results depend on the processing

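Of 989 values of the members recomputed under 21 other settings, 934 kept their direction and their side of the thresholds, 33 were no longer called, 22 became called and none changed direction. A minimum of 10 counts in each tumor left 2 members tested (*Fabp4* and *Lpl*), and the other members could not be called. Called members, over the calls given above, were 0 of 4 in the nonobese and 2 of 10 in the obese response. They were 1 of 6 for diet with isotype, 2 of 9 for diet with anti–PD-1 and 2 of 10 for the difference between responses. Neither of the 2 was among the 4 called above in the nonobese response. Leaving out each tumor in turn gave 2 to 7, 9 to 10, 2 to 7, 7 to 9 and 9 to 10 called members. Omitting both the third treated obese and the second isotype-treated nonobese tumor, chosen after seeing the data, gave 2, 8, 1, 7 and 8. *Retn* did not pass the filter in that fit and is missing from each of these counts. Over all genes the calls in the same directions went from 302, 293, 147, 483 and 645 to 152, 170, 47, 284 and 343. The median likeness to *Adipoq* was 0.83 without the 2 tumors farthest from its median. With the replicate number as a replicate block, the counts were 6, 10, 6, 10 and 10. *Plin1* and *Plin4* were gained in the nonobese response and *Car3* for diet with anti–PD-1. For diet with isotype *Cidec* was lost (-1.52) and *Car3* gained (-2.54). For diet with anti–PD-1, the 50 genes below an FDR of 0.05 became 95 with the block, 87 with legacy=FALSE, 104 without a filter, 270 with DESeq2, 0 with only the 6 tumors compared, 2 without both tumors named above and 2 to 214 without 1 tumor. Tumors of the same number correlated by -0.26 to 0.56 (mean 0.13) in their deviations from the group means. Those of different numbers correlated by -0.55 to 0.45 (mean -0.06), and 6 of 12 tumors correlated best with their own number. The first tumor of each group was its lowest in *Car3* and in the muscle sum, and its highest in the red cell sum. With the block, *Car3* for diet with anti–PD-1 had an unadjusted P value of 0.0028 from edgeR, against 0.0950 without it. The labels name nothing that tumors of the same number share, so they were not taken as pairs, and pairing was not tested further. Depth limits *Retn*, *Lep* and *Plin1*, which had 104 to 207 counts over all tumors.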
